A study of Mus musculus with 192 samples.

Results

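Blood group antigens are inherited variants of molecules on the red cell surface, and the genes described here encode 10 of the proteins that carry them: Kel, Xk, Ermap, Rhd, Rhag, Icam4, Aqp1, Cd44, Bsg and Gypc. They were taken by symbol from a table of 49466 genes, and all 10 had a row. The table comes from SmartSeq2, a full-length single-cell RNA sequencing method, applied to fetal liver of C57/Bl6J mice at embryonic day 14.5, with no treatment or mutation named. BFU-E (burst forming unit-erythroid), the first progenitor restricted to making red cells, filled one 96-well plate, and CFU-E (colony forming unit-erythroid), a later and faster dividing stage, filled another. Mature red cells were lysed before the sort, and beads removed cells with CD41, CD16/32, Sca-1 or Ter119 and cells with the lymphoid or myeloid antigens CD3e, CD45R, CD11b or Ly-6G; none of these antigens is a product of the carrier genes described here. Each library is 1 cell, no animal is named, and each cell type filled its own plate, so each cell type counts as 1 sample. Plate and cell type cannot be told apart, and no test between cell types was possible.

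The carriers sit in the membrane in groups. The Rh protein and the Rh-associated glycoprotein form a channel-like core that binds band 3, the anion exchanger, and reaches the spectrin skeleton through ankyrin. Kell and XK are partners, glycophorin C anchors the membrane to protein 4.1, and aquaporin-1, CD44 and basigin are a water channel, a hyaluronan receptor and a chaperone of lactate transporters that many other cell types also make. In textbook accounts most of these proteins accumulate while erythroid precursors mature, and CD44 declines in late erythroblasts.

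All levels below are counts per 1000000 counts (CPM) after every cell had been thinned at random to 100000 counts, so that 1 count in a cell is 10 CPM and depth did not differ between cells. Of 96 BFU-E and 95 CFU-E wells, 92 and 89 had at least 100000 counts and 2000 genes and were kept; before thinning the wells ranged from 5825 to 3864040 counts. Clustering the BFU-E plate without the carriers and their related genes split it into 54 erythroid cells and 38 granulocyte-monocyte-like cells. The granulocyte-monocyte-like cluster was named as the one with the higher sum of 12 granulocyte and monocyte markers per cell. These markers were not left out of the clustering, so the direction of their difference was set by the naming. They summed to 5628 CPM in that cluster and to 97.2 CPM in the erythroid BFU-E cells, and in CFU-E 9 of the 12 were at 0. The 10 erythroid markers summed to 342, 2236 and 12952 CPM in granulocyte-monocyte-like, erythroid BFU-E and CFU-E cells. The CFU-E plate formed no separated clusters, but 3 of its cells had counts of 6 lymphoid markers, and results that rest on them are given with and without them. On the BFU-E plate 3 granulocyte-monocyte-like cells had counts of 3 lymphoid markers.

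The 250 bases before the annotated start were taken from the RefSeq promoter table (GRCm38.p6). They were examined for 8 carriers: Kel, Xk, Ermap, Rhd, Rhag, Icam4, Aqp1 and Cd44. No window of Bsg or Gypc was examined. Windows are printed for 4 carriers that were counted in CFU-E and held both kinds of motif. In thinned granulocyte-monocyte-like cells these carriers had no count or a level of at most 3.42 CPM. The Cd44 window is also printed, since the Cd44 level was higher in granulocyte-monocyte-like cells than in CFU-E. The Kel window is chr6:41704326-41704575 on the minus strand, the Ermap window chr4:119189996-119190245 on the minus strand, the Rhd window chr4:134864286-134864535 on the plus strand, the Rhag window chr17:40810899-40811148 on the plus strand and the Cd44 window chr2:102901666-102901915 on the minus strand. Each is written 5′ to 3′ along the gene's own strand and ends at the base before the start. Capitals mark AGATAA, its close relative TGATAA, and the shorter motif CACCC. For a match on the opposite strand they mark the reverse complement.
Kel: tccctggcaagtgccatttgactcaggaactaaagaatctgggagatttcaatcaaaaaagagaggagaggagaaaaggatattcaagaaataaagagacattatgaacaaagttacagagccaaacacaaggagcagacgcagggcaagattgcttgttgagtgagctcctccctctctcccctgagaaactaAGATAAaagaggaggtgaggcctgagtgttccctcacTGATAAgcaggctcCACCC
Ermap: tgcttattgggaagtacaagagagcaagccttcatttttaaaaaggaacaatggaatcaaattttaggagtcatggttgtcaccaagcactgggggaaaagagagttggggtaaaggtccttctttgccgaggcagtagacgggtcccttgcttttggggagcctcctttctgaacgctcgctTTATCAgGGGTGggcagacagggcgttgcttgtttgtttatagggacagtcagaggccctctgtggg
Rhd: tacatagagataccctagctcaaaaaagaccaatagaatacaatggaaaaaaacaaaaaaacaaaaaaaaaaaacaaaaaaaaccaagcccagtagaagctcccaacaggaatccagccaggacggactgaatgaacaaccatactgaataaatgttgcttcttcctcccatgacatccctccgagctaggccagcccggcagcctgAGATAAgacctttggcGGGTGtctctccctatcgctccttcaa
Rhag: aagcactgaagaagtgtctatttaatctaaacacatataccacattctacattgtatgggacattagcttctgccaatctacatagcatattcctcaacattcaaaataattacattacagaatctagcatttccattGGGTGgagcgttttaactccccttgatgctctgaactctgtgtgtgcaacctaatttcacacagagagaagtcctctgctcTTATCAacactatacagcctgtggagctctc
Cd44: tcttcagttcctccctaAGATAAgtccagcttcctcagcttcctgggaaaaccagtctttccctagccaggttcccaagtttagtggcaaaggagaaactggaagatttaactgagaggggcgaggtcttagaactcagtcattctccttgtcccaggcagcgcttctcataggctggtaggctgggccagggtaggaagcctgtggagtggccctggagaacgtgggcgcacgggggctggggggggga
AGATAA and TGATAA are forms of the letters that GATA factors bind, and CACCC is the core of the box that Kruppel-like factors bind. The nearest GATA-type match to the start lay 19 bases before it in Kel, 67 in Ermap, 43 in Rhd and 31 in Rhag. In Cd44 the AGATAA lay 233 bases before the start and no CACCC was present. The other 4 printed windows were chosen for holding both kinds, so their difference from Cd44 in kinds of motif was set by that choice. Rhd and Rhag each held 1 GATA-type match and 1 CACCC. Kel held both GATA-type forms, with AGATAA 56 bases before the start and CACCC at 5. Icam4, which had no count in any class and whose window is not printed, also held both kinds (AGATAA at 43 and CACCC at 53), while Xk held 1 CACCC, and Aqp1 held 3, without a GATA-type match. Among 32851 windows of the same length in the table, on both strands and with any overlap counted, 16.6% held AGATAA or TGATAA, 52% held CACCC and 7.11% held both kinds, against 5 of these 8. A match describes the letters only.

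Rhd and Rhag differed most between the plates. Rhd encodes the mouse Rh protein, and Rhag encodes the ammonium-conducting glycoprotein that it needs to reach the surface. Rhd (chr4:134864536-134896172, plus strand) had a lowest, median and highest single-cell level of 0, 600 and 1880 CPM in CFU-E, of 0, 0 and 240 CPM in erythroid BFU-E cells, and of 0, 0 and 30 CPM in granulocyte-monocyte-like cells. Most CFU-E cells therefore stood above every erythroid BFU-E cell, and the few that did not included the lymphoid-marker cells, which held 10, 10 and 0 CPM. Without those 3 cells the lowest CFU-E cell held 110 CPM, inside the erythroid BFU-E range.

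Rhag (chr17:40811126-40840754, plus strand) showed the same arrangement. It had a lowest, median and highest level of 0, 580 and 1690 CPM in CFU-E and of 0, 0 and 230 CPM in erythroid BFU-E cells, and no count in any of the 38 granulocyte-monocyte-like cells. The lymphoid-marker cells held 10, 0 and 20 CPM, and the lowest of the other 86 CFU-E cells held 150 CPM. Over whole classes the Rhd level was 677 CPM in CFU-E (exact Poisson 95% interval 660 to 694) and 28.3 CPM in erythroid BFU-E cells (24 to 33.2), a ratio of 23.9 (exact conditional binomial 95% interval 20.3 to 28.2). The Rhag level was 626 CPM (609 to 642) against 40 CPM (34.8 to 45.7), a ratio of 15.6 (13.7 to 18). These intervals, like all intervals here, cover counting error only, since reads amplified by PCR without molecular identifiers are not independent molecules and differences between animals or plates have no estimate.

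In the BFU-E plate the Rh genes were counted in only some erythroid cells. Rhag had a count in 23 of 54 erythroid BFU-E cells, 42.6% (Clopper-Pearson 95% interval 29.2 to 56.8), and Rhd in 16, 29.6% (18 to 43.6). Both were counted in 12 cells, Rhag alone in 11, Rhd alone in 4 and neither in 27. In CFU-E both were counted in 87 of 89 cells, and in all 86 cells without lymphoid markers. Without thinning, the shares in erythroid BFU-E cells were 51.9% for Rhag and 35.2% for Rhd, and those in granulocyte-monocyte-like cells were 15.8% and 13.2%. Whether the latter counts come from well-to-well carry-over or from low expression was not tested. Median depths before thinning were 1108993.5 counts in erythroid BFU-E cells and 1137538.5 in granulocyte-monocyte-like cells.

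Kel and Xk encode the Kell endopeptidase, which cleaves big endothelins, and the membrane protein to which it is linked. Kel (chr6:41686330-41704339, minus strand) had a lowest, median and highest level of 0, 250 and 840 CPM in CFU-E and of 0, 50 and 850 CPM in erythroid BFU-E cells, and was at 0 in every granulocyte-monocyte-like cell. The ranges of CFU-E and erythroid BFU-E cells overlapped over their whole length, although the medians lay apart. Kel was at 264 CPM in CFU-E (254 to 275) and 89.4 CPM in erythroid BFU-E cells (81.6 to 97.8), a ratio of 2.96 (2.68 to 3.27). One erythroid BFU-E cell held 17.6% of that class's Kel counts, and without it the level was 75.1 CPM. Against granulocyte-monocyte-like cells, where no count was found, Kel was at least 113-fold higher in erythroid BFU-E cells, with the floor set at 3 counts over the group; without thinning, 8 of the 38 granulocyte-monocyte-like cells had a Kel count and none had 5 or more.

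Xk (chrX:9272756-9313250, plus strand) was less restricted than its partner. Its lowest, median and highest levels were 0, 100 and 500 CPM in CFU-E, 0, 55 and 290 CPM in erythroid BFU-E cells and 0, 0 and 210 CPM in granulocyte-monocyte-like cells. All 3 ranges overlapped. Xk was at 126 CPM in CFU-E and 68.1 CPM in erythroid BFU-E cells, a ratio of 1.85 (1.64 to 2.09). It was 4.89-fold higher (3.66 to 6.65) in erythroid BFU-E than in granulocyte-monocyte-like cells. In the last class 1 cell held 39.6% of the counts, and the level of 13.9 CPM was 8.65 CPM without it. Of 54 erythroid BFU-E cells, 27 had counts of both Kel and Xk, 12 of Kel alone, 10 of Xk alone and 5 of neither. Before thinning, 50% of granulocyte-monocyte-like cells had an Xk count and 18.4% had 5 or more.

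Ermap encodes an immunoglobulin-superfamily protein of erythroid membranes that carries the Scianna antigens. It was already counted in most erythroid BFU-E cells, 41 of 54. Ermap (chr4:119175457-119190011, minus strand) had a lowest, median and highest level of 0, 430 and 990 CPM in CFU-E, of 0, 285 and 960 CPM in erythroid BFU-E cells and of 0, 0 and 60 CPM in granulocyte-monocyte-like cells. CFU-E and erythroid BFU-E cells reached the same upper range, but 13 of 54 erythroid BFU-E cells had no count, against 2 of 89 CFU-E cells, both of them lymphoid-marker cells. The class levels were 440 and 306 CPM, a ratio of 1.44 (1.36 to 1.52). Ermap was 89.5-fold higher (52.2 to 168) in erythroid BFU-E than in granulocyte-monocyte-like cells, where the level of 3.42 CPM was 1.89 CPM without the highest cell. Before thinning, 60.5% of granulocyte-monocyte-like cells had an Ermap count and 5.26% had 5 or more.

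Aqp1 encodes the water channel that carries the Colton antigens. Aqp1 (chr6:55336432-55348555, plus strand) had a lowest, median and highest level of 0, 60 and 290 CPM in CFU-E, of 0, 50 and 470 CPM in erythroid BFU-E cells and of 0, 0 and 30 CPM in granulocyte-monocyte-like cells. CFU-E and erythroid BFU-E cells overlapped over almost the whole range. The class levels were 82.7 CPM (76.8 to 88.9) and 83.9 CPM (76.3 to 92), a ratio of 0.986 (0.876 to 1.11). The ratio to erythroid BFU-E cells moved to the other side of 1, at 1.43, with trimmed-mean (TMM) scaling and at 1.02 without the lymphoid-marker cells. Aqp1 was 53.1-fold higher (24.2 to 146) in erythroid BFU-E cells than in granulocyte-monocyte-like cells, where it rested on 6 counts in 2 cells and the level of 1.58 CPM was 0.811 CPM without the higher of them. More CFU-E cells had a count, 91% (83.1 to 96) against 72.2% (58.4 to 83.5) of erythroid BFU-E cells, although the intervals of the class levels overlapped. Before thinning, 36.8% of granulocyte-monocyte-like cells had an Aqp1 count and 5.26% had 5 or more.

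**Figure D1:**
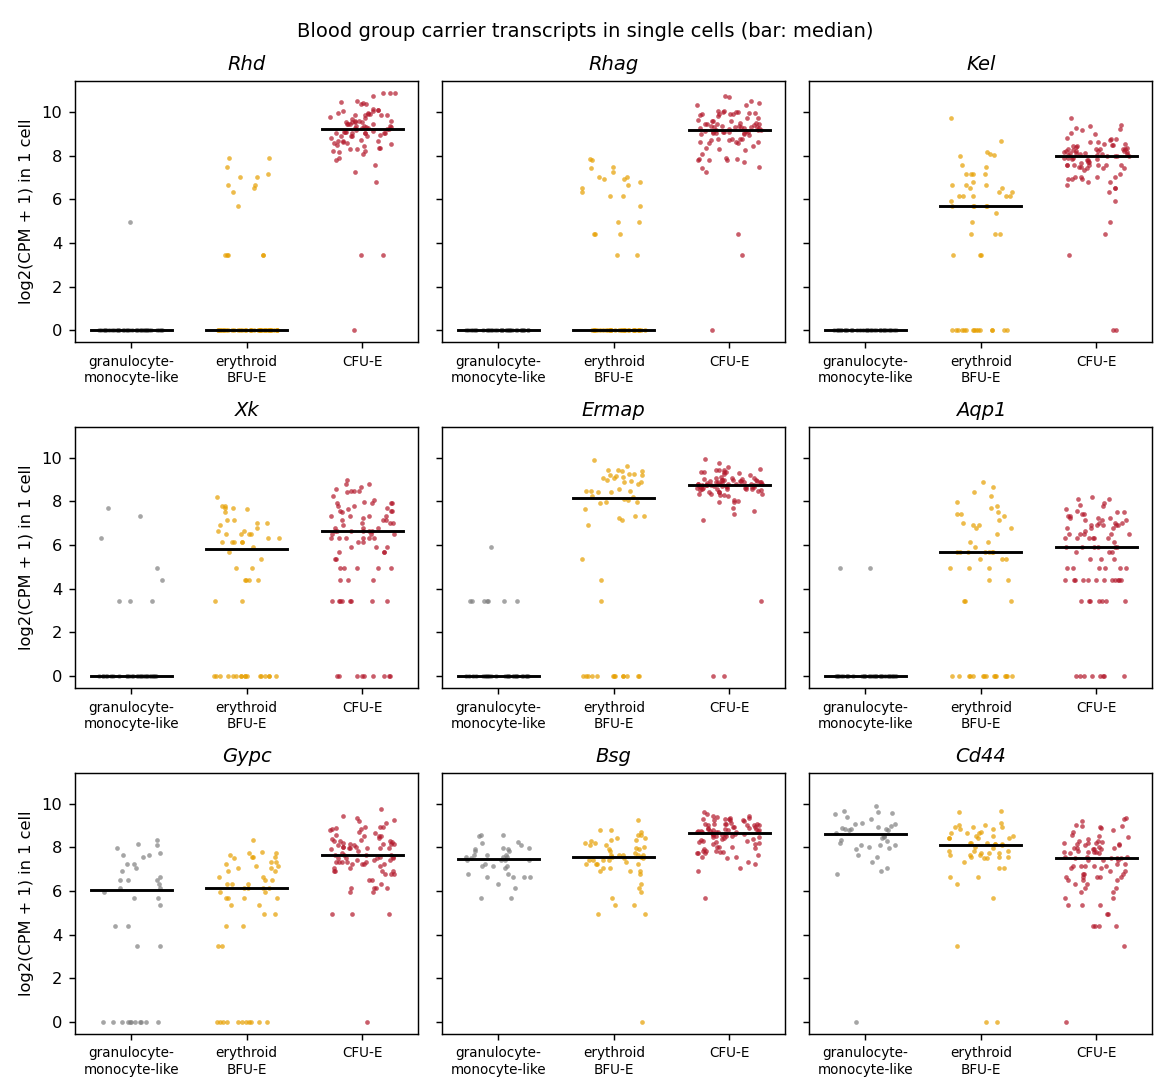
Each panel plots 1 carrier gene: every point is 1 cell, the vertical axis is log2(CPM + 1) in thinned cells, and black bars are medians of 38 granulocyte-monocyte-like, 54 erythroid BFU-E and 89 CFU-E cells. Median Rhd and Rhag levels were 0 in both BFU-E classes and 600 and 580 CPM in CFU-E, whereas Cd44, Bsg and Gypc were counted in most cells of every class.

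Gypc, Bsg and Cd44 were not restricted to erythroid cells. Gypc encodes glycophorin C, the Gerbich antigen carrier. Gypc (chr18:32528322-32560034, minus strand) had a lowest, median and highest level of 0, 200 and 850 CPM in CFU-E, of 0, 70 and 320 CPM in erythroid BFU-E cells and of 0, 65 and 320 CPM in granulocyte-monocyte-like cells. The BFU-E classes covered the same range, and CFU-E cells reached higher. The class levels were 249, 84.8 and 87.4 CPM, so that the ratio was 2.93 (2.65 to 3.25) between CFU-E and erythroid BFU-E cells and 0.971 (0.841 to 1.12) between the BFU-E classes.

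Bsg encodes basigin, which carries the Ok antigen and escorts monocarboxylate transporters to the membrane. Bsg (chr10:79704491-79711969, plus strand) had a lowest, median and highest level of 50, 400 and 790 CPM in CFU-E, of 0, 190 and 600 CPM in erythroid BFU-E cells and of 50, 175 and 380 CPM in granulocyte-monocyte-like cells. Its range in CFU-E overlapped that of both BFU-E classes. The class levels were 400.4, 206 and 185 CPM, and the ratio of CFU-E to erythroid BFU-E cells was 1.94 (1.81 to 2.08).

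Cd44, the Indian antigen carrier, was highest outside the erythroid cells. Cd44 (chr2:102811141-102901665, minus strand) had a lowest, median and highest level of 0, 180 and 650 CPM in CFU-E, of 0, 275 and 800 CPM in erythroid BFU-E cells and of 0, 385 and 940 CPM in granulocyte-monocyte-like cells. The ranges overlapped widely while the medians stepped down in that order of classes. The class levels were 202, 291 and 408 CPM. Cd44 was 1.44-fold lower (1.34 to 1.54) in CFU-E than in erythroid BFU-E cells, but with TMM scaling the ratio was 1.01, so its direction depended on how the classes were scaled. It was 1.40-fold lower (1.31 to 1.51) in erythroid BFU-E than in granulocyte-monocyte-like cells, and there TMM scaling left the ratio at 0.707 against 0.712. The lymphoid-marker CFU-E cells held 590, 270 and 490 CPM of Cd44, all above the CFU-E median.

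Icam4 encodes the Landsteiner-Wiener glycoprotein, a ligand of integrins. It had 0 counts in every one of the 191 wells, whether kept or not. In thinned cells the exact Poisson 95% upper limit was 0.414 CPM in CFU-E and 0.401 CPM over the BFU-E plate. The Clopper-Pearson upper limit for the share of CFU-E cells with a count was 4.06%. These limits cover only reads that the counting assigned to Icam4. In the GENCODE M21 annotation of GRCm38 all 1110 exonic bases of Icam4 (chr9:21029373-21030595, plus strand) lie within exons of a gene on the opposite strand, AC159314.1 in the table (ENSMUSG00000110790), which had 43 counts over all wells. The library method does not mark strand, and how the counting treated reads that fall in more than 1 gene is not given in the sources used here. Of 128 protein-coding genes whose every exonic base is shared with other genes, 104 (81.2%) had no count in any well, against 4903 of 15682 (31.3%) with no shared base. The part of this overlap in the Icam4 value was not tested, and the other 9 carriers shared no exonic base with another gene.

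Set against all genes, the carriers lay toward the CFU-E side. The carriers and the related genes below were chosen with earlier results of these data known. The shares over all genes therefore stand beside them as a description and give no independent support. Compared with the whole BFU-E plate, 7 of the 9 measured carriers (mean of the compared groups at least 5 CPM) had a CFU-E level at least 2-fold higher, namely Rhd, Rhag, Kel, Gypc, Xk, Ermap and Bsg; over all 9469 measured genes 6.51% were at least 2-fold higher. Bsg lay near the limit, and without the 3 lymphoid-marker cells of the BFU-E plate it was just under 2-fold and the count was 6. No carrier was at least 2-fold lower, against 34.1% of measured genes. Their median difference of log2(CPM + 1) was 1.44, against -0.58 over all measured genes. Rhd ranked 9 and Rhag 24 from the highest, with ratios to the plate of 39.9 (34 to 47.1) and 26.6 (23.3 to 30.7).

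The granulocyte-monocyte-like cells of the BFU-E plate held few counts of most carriers. Compared with erythroid BFU-E cells alone, 4 of 9 carriers (Rhd, Rhag, Kel and Gypc) had a CFU-E level at least 2-fold higher, against 6.19% of 9143 measured genes, and none was at least 2-fold lower, against 31.3%. Without the lymphoid-marker cells the same 4 were higher, against 6.15% of 9107 measured genes, and none lower, against 32.2%. The median of the carriers was 0.95, against -0.53 over all measured genes. The median of all genes lay below 0, and TMM factors shifted every log2 difference by 0.54, after which 7 of 9 carriers were at least 2-fold higher, with 14% of measured genes higher and 16.7% lower. In the comparison with the whole plate TMM left 8 carriers higher, with 14.7% of genes higher and 19.2% lower. The carriers kept their side of 1 under that scaling except Aqp1 and Cd44 against erythroid BFU-E cells, as given above. Markers of other cell types differed in this comparison too. The 5 megakaryocyte markers reported here summed to 284 CPM in erythroid BFU-E cells (single cells 0 to 1250) and 25.7 CPM in CFU-E (0 to 160), led in the former by Itga2b, which encodes the depleted antigen CD41, at 236 CPM, with the platelet factor gene Pf4 at 0 in both. Stem and multipotent progenitor markers summed to 378 and 11.1 CPM. Their part in the carrier values was not tested.

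Within the BFU-E plate, 6 of 9 carriers (Kel, Xk, Ermap, Rhd, Rhag and Aqp1) were at least 2-fold higher in erythroid than in granulocyte-monocyte-like cells, against 9.06% of 9946 measured genes. No carrier was at least 2-fold lower, against 13.9%. In granulocyte-monocyte-like cells Kel and Rhag were at 0, Rhd at 0.789, Aqp1 at 1.58 and Ermap at 3.42 CPM. These carriers passed the minimum mean of 5 CPM only through the erythroid cells. For all of them but Ermap this fixed a ratio of at least 2 in advance, so the 6 of 9 is a description only. The median over the carriers was 4.03 and over all genes 0.00, and TMM scaling moved values by -0.01 only. Rhag, with no count in granulocyte-monocyte-like cells, was at least 50.7-fold higher in erythroid BFU-E cells, and Rhd was 35.9-fold higher (12.1 to 176) on 3 counts from 1 granulocyte-monocyte-like cell. Rhd and Rhag thus differed more than 10-fold both between the BFU-E classes and between erythroid BFU-E cells and CFU-E. Kel, Xk, Ermap and Aqp1 had their larger difference between the BFU-E classes, while Gypc and Bsg, at ratios of 0.971 and 1.12 between those classes, had it at CFU-E. Without the 3 granulocyte-monocyte-like cells with lymphoid markers the ratio was 1.09 for Gypc (0.934 to 1.27), on the other side of 1, and 1.07 for Bsg (0.975 to 1.18).

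**Figure D2:**
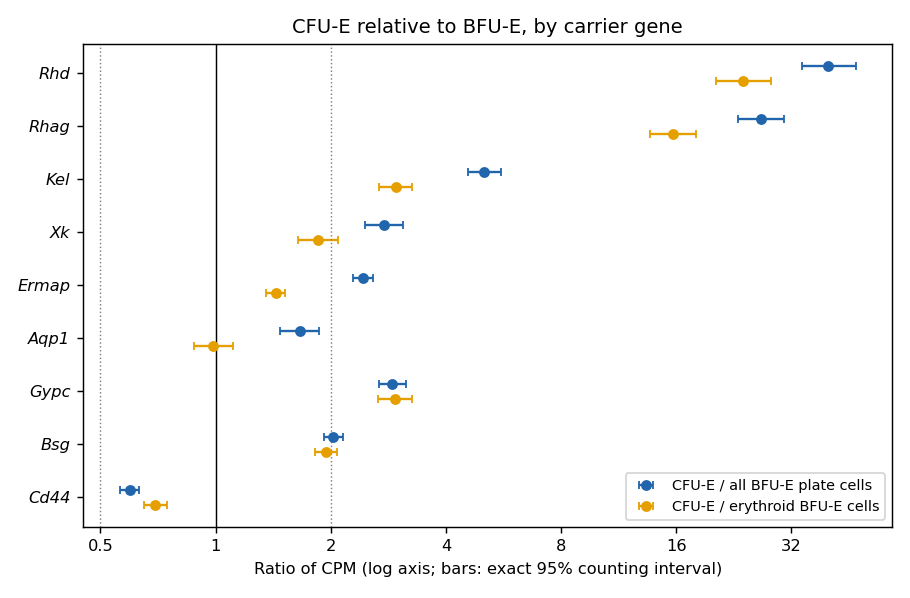
The horizontal log axis gives the ratio of CPM in CFU-E to that in all BFU-E plate cells (blue) or in erythroid BFU-E cells (orange), with bars for the exact 95% counting interval and dotted lines at 2-fold. Both ratios of Rhd and Rhag exceeded 15. For every carrier except Gypc and Cd44 the orange point lay left of the blue one, with Aqp1 at 0.986.

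Per kilobase of exon the order of the carriers changed between the classes. In erythroid BFU-E cells Bsg was highest at 114 CPM per kb, followed by Ermap at 57.8, Cd44 at 42.9, Gypc at 36.4, Kel at 32.3, Aqp1 at 31.9, Rhd at 17.8, Rhag at 17.1 and Xk at 13.4. Counting intervals of neighbours overlapped for Gypc and Kel, Kel and Aqp1, and Rhd and Rhag. In CFU-E Rhd was highest at 424 CPM per kb and Rhag next at 267, ahead of Bsg at 221, Gypc at 107, Kel at 95.4, Ermap at 83, Aqp1 at 31.5, Cd44 at 29.8 and Xk at 24.8. There only the intervals of Aqp1 and Cd44 overlapped. Rhd and Rhag thus moved from places 7 and 8 of the 9 to places 1 and 2. In granulocyte-monocyte-like cells the first 3 places went to Bsg (102 CPM per kb), Cd44 (60.2) and Gypc (37.5), and every other carrier lay below 3 CPM per kb.

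More carriers were counted per cell in CFU-E than in either BFU-E class. Granulocyte-monocyte-like cells had counts of a median of 3 of the 9 carriers (lowest 2, highest 4), erythroid BFU-E cells of 7 (3 to 9) and CFU-E cells of 9 (4 to 9). All 9 were counted in 5 of 54 erythroid BFU-E cells and in 73 of 89 CFU-E cells, and without the lymphoid-marker cells no CFU-E cell had fewer than 8. Of 39 erythroid BFU-E cells with Kel, 20 also had Rhag, whereas 3 cells had Rhag without Kel and 12 had neither. Likewise 20 cells had Ermap and Rhag, 21 Ermap alone, 3 Rhag alone and 10 neither. These counts describe single cells at 100000 counts each, where a missing count does not show that a transcript was absent.

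**Figure D3:**
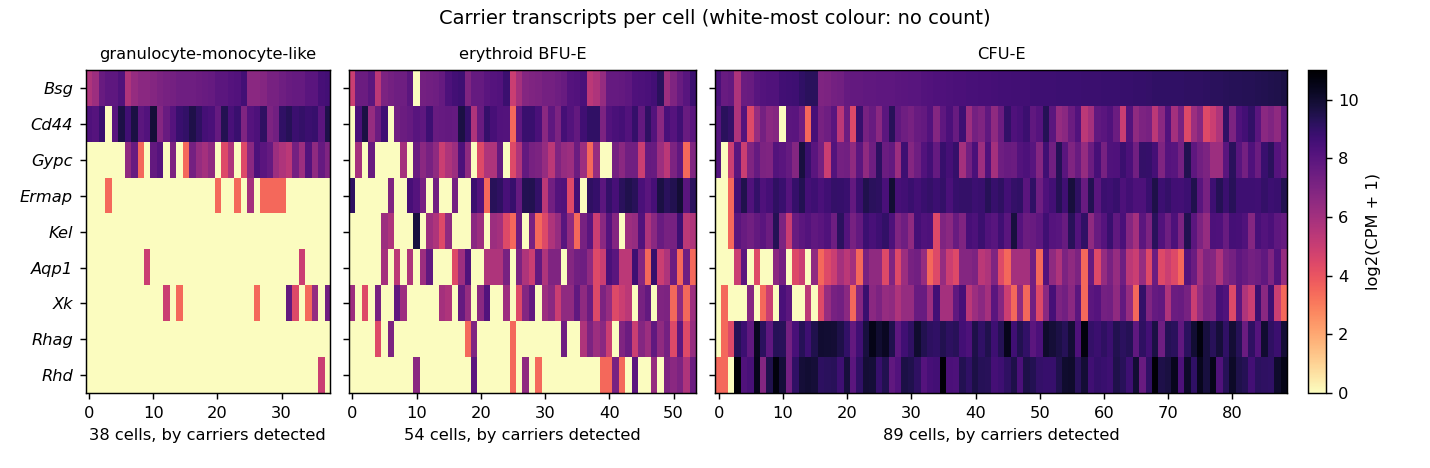
Columns are cells, ordered within each class by the number of carriers detected, rows are carriers, and colour is log2(CPM + 1) in thinned cells, with the palest colour for no count. All 9 rows are filled in 73 of 89 CFU-E cells and in 5 of 54 erythroid BFU-E cells, where Rhag and Rhd are the rows most often empty (31 and 38 cells).

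Within a class most pairs of carriers had a low rho in thinned cells, and the part of counting error in this was not tested. Across 86 CFU-E cells without lymphoid markers, Spearman's rho over 36 pairs ran from -0.28 to 0.35 with a median of 0.12, and with all 89 cells from -0.33 to 0.41 with a median of 0.16. Rhag and Kel had 0.35 in the 86 cells, Rhd and Rhag 0.26 and Rhd and Cd44 -0.28. Across 54 erythroid BFU-E cells the 21 pairs among 7 carriers (Rhd and Rhag had counts in too few cells) ran from -0.06 to 0.40 with a median of 0.11, Kel with Ermap being the highest. These are descriptions over cells that share a plate, a lane and a thinned depth, and weak values are no finding.

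**Figure D4:**
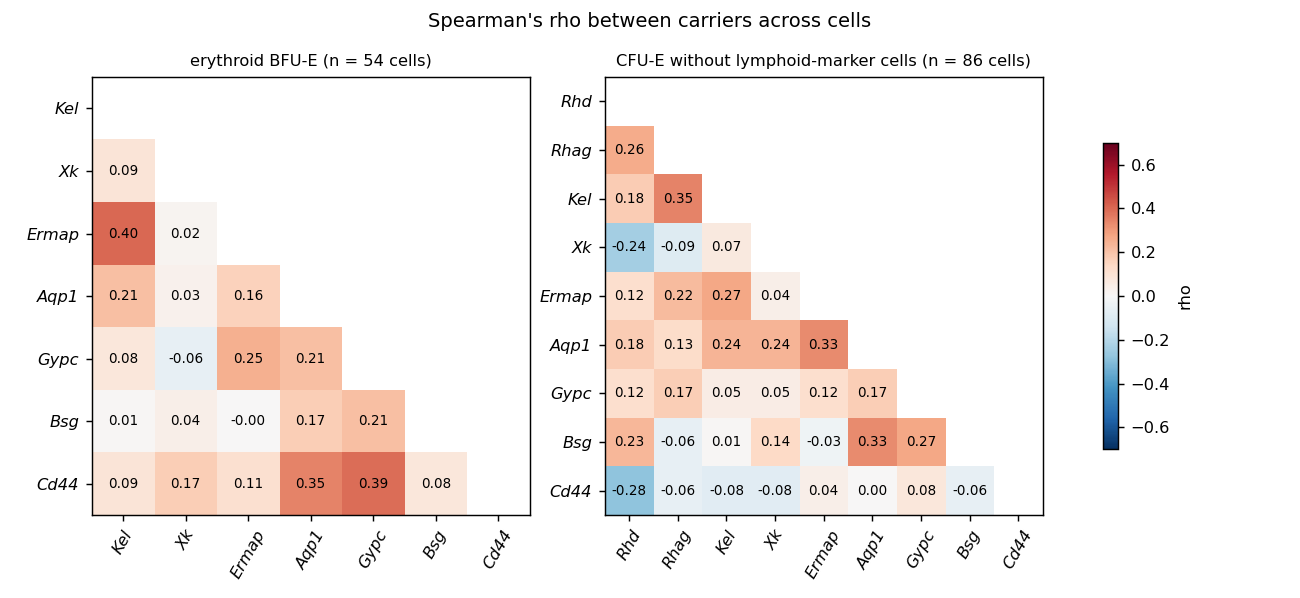
Each square gives Spearman's rho of a pair of carriers across 54 erythroid BFU-E cells (left) or 86 CFU-E cells without lymphoid markers (right). Values ran from -0.06 to 0.40 on the left and from -0.28 to 0.35 on the right.

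The genes whose level followed a carrier most closely were named by the 3 highest rho values among genes counted in at least 50% of the cells of the class (5572 genes in 89 CFU-E cells, 5756 in 54 erythroid BFU-E cells). Pseudogenes and genes with predicted or clone-based names were passed over in this naming. In CFU-E, Rhd went with Tmem14c, a mitochondrial porphyrin carrier, at 0.60, Prdx2, a red cell peroxiredoxin, at 0.57 and Fth1, the ferritin heavy chain, at 0.56. Without the lymphoid-marker cells Tmem14c was at 0.56 and Prdx2 at 0.52, and Hnrnpa2b1 came first at 0.58. Rhag went with Tfrc, the transferrin receptor, at 0.51, and Aqp1 with Fech, the last enzyme of heme synthesis, at 0.57 (0.46 and 0.52 without those cells). Kel had Sox6, an erythroid transcription factor, at 0.49, and Ermap had Eef2, an elongation factor, at 0.51. Without the lymphoid-marker cells Kel had Ctsd first at 0.46, with H3f3a and Sox6 at 0.45, and Ermap had Eef2 at 0.47. For Xk, Cd44, Bsg and Gypc no gene open to naming exceeded 0.41 in the 89 cells. In erythroid BFU-E cells Ermap went with Blvrb, the erythroid biliverdin reductase, at 0.66, Prdx6 at 0.63 and Tfrc at 0.56, Kel with Ifngr1 at 0.59, and Bsg with the mitotic genes Aurka at 0.55 and Ccnb1 at 0.53. Bsg also had a rho of 0.33 with the cell's count before thinning there, and its part in these values was not tested. The highest of so many rho values is large by selection, and the median rho over all genes was between -0.02 and 0.08 for every carrier in these classes.

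Other blood group carriers did not all lean the same way. Of 25 in the table, 20 were measured; 9 were at least 2-fold higher and 4 lower in CFU-E than in erythroid BFU-E cells (background 6.19% and 31.3%), with a median log2 difference of 0.39. Slc4a1, which encodes band 3 and the Diego antigens, was at 73.6 CPM in CFU-E and 0.741 CPM in erythroid BFU-E cells, a ratio of 99.4 (38.6 to 366) on 4 counts in the latter. Aqp3, the glycerol channel of the GIL antigen, had no count in 54 erythroid BFU-E cells and at 18 CPM its CFU-E level was at least 32.4-fold higher. Prnp, the prion protein, was 12.9-fold higher (7.25 to 25.3). The 4 lower genes were Emp3, Abcc1, Slc44a2 and Cd59a, of which Emp3 was the lowest at 6.98-fold (5.25 to 9.41) and Cd59a left the group of 4 without the lymphoid-marker cells. With TMM scaling the Cd59a ratio was 0.702, no longer 2-fold lower. Of 8 glycosyltransferases that build carbohydrate blood groups only Gcnt2, which branches the I antigen, was measured, and it was 29.1-fold lower (12.9 to 81.1) in CFU-E.

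Most membrane partners of the carriers were also higher in CFU-E. Against erythroid BFU-E cells, 10 of 17 measured partners were higher by at least 2-fold and 2, Add1 and Slc2a1, were lower (Slc2a1 alone without the lymphoid-marker cells), against 6.19% and 31.3% of all measured genes, with a median log2 difference of 2.09. With TMM scaling the Add1 ratio was 0.710, no longer 2-fold lower. Epb42, the band 3-binding protein 4.2, was 50-fold higher (31.1 to 86.1) and Dmtn, the actin-bundling dematin, 14.2-fold (9.07 to 23.4). Ank1, the ankyrin that holds the Rh complex, was 4.34-fold higher (3.72 to 5.08), and Mpp1, which binds glycophorin C, was 4.41-fold higher (3.78 to 5.18). Cd47, an Rh complex partner, was at 1091 CPM in CFU-E and 797 CPM in erythroid BFU-E cells, a ratio of 1.37 (1.32 to 1.42), close to Epb41, protein 4.1, at 1.34 (1.23 to 1.47). Slc16a1, a lactate transporter that basigin escorts, was at 1.25 (1.10 to 1.42), below the 1.94 of Bsg, and Vps13a, an XK-binding lipid transfer protein, was at 0.724 (0.604 to 0.870), against 1.85 for Xk; with TMM scaling Vps13a was at 1.05.

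Few binding partners from outside the red cell were measured. Of 6 measured ligands and receptors 1 was at least 2-fold higher and 3 were lower in CFU-E than in erythroid BFU-E cells, where 31.3% of all measured genes were lower and 6.19% higher, with a median log2 difference of -0.80. Itgal and Itgb2, the chains of the leukocyte integrin that binds Icam4, were 55.2-fold (34.6 to 93.8) and 8.01-fold (6.49 to 9.97) lower, and Itga4, a chain of an integrin that also binds Icam4, was 2.08-fold lower (1.97 to 2.20). With TMM scaling the Itga4 ratio was 0.697, no longer 2-fold lower. Hyal2, a hyaluronidase of the Cd44 pathway, was 2.19-fold higher (1.88 to 2.56), and Ppia, the cyclophilin that binds basigin, was at 0.874 (0.848 to 0.901), on the other side of 1 with TMM scaling at 1.27. The endothelins Edn1, Edn2 and Edn3, substrates of Kell as their precursors, were not measured.

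**Figure D5:**
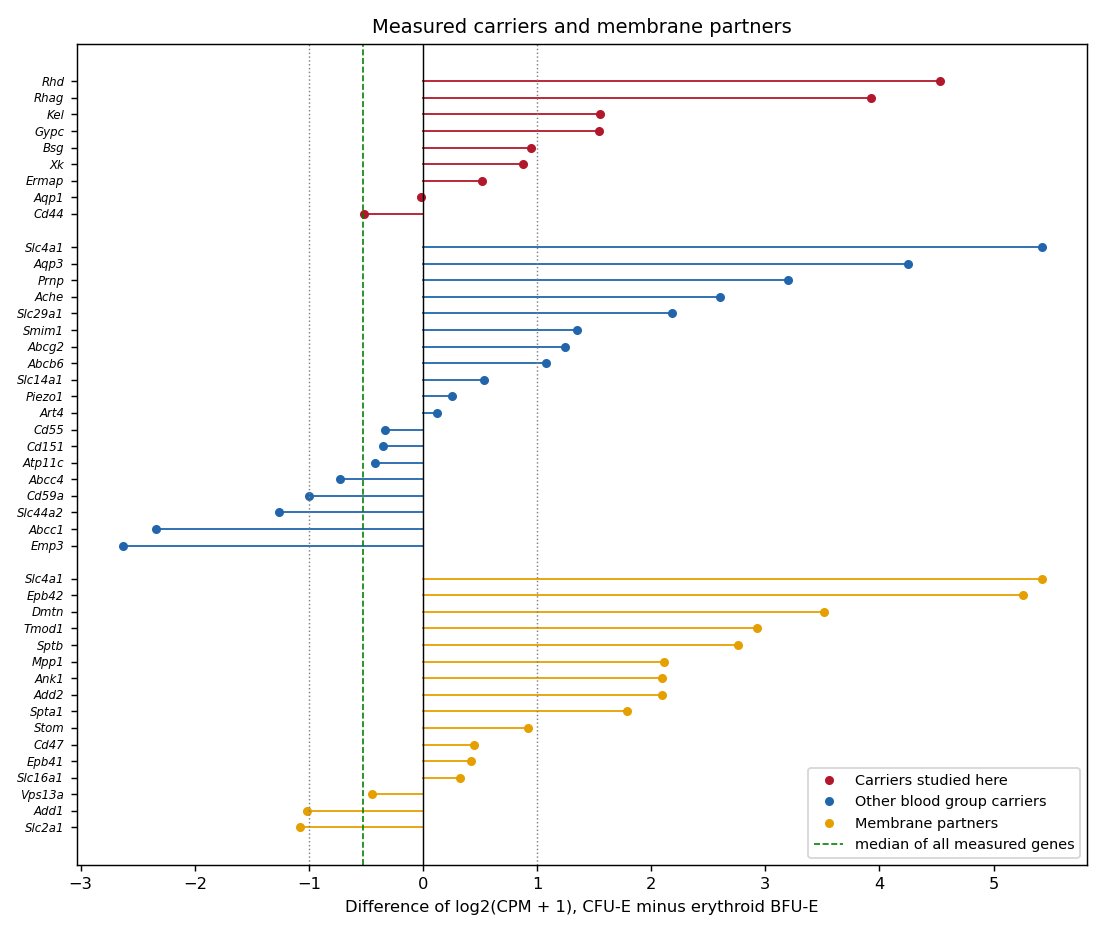
The horizontal axis gives the difference of log2(CPM + 1), CFU-E minus erythroid BFU-E cells, for measured carriers (red), other blood group carriers (blue) and membrane partners (orange) that are reported here. Dotted lines mark 2-fold and the dashed line the median of all measured genes at -0.53; the carriers had a median of 0.95 and the membrane partners of 2.09.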

How the data were processed

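Whole-number counts of reads per gene, not normalized, were deposited by the authors. The submitters' processing notes name STAR 2.4, featureCounts without a version and the build GRCm38. Annotation release, strand setting and the handling of reads shared by genes were not given in the sources used here. Of 192 cells, 191 were matched to a column by name; the other, of the CFU-E plate, was not analysed here, and 1 column was left unused.

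Cells reaching 100000 counts and 2000 genes were thinned to 100000 counts (seed 1) and summed per class. Levels are CPM of these sums. A gene was measured at a mean of at least 5 CPM over the groups compared and was counted as higher or lower from 2-fold; differences use log2(CPM + 1), and the floor was 3 counts over a group. A gene below 5 CPM in 1 group was measured only through the other group, and near 0 its direction was set by this minimum. Against erythroid BFU-E cells this holds for Slc4a1, Aqp3, Epb42, Itgal and Gcnt2, among others. The carrier genes, the related genes and the 9 marker lists were chosen with earlier results of these data known. Named genes were every carrier, the 4 measured genes of each related list with the largest difference, partners known to bind a carrier, the 3 highest rho values per carrier, and the 3 most abundant markers of each list. Pseudogenes and predicted or clone-based names were passed over when rho values were ranked. Emp3, Slc2a1, Add1, Slc44a2, Cd59a, Abcc1 and Ppia were added after their values were seen. Some genes that this rule names have no value in the text. Ward clusters of the BFU-E plate used 10 principal components of 1000 variable genes, with carriers and related genes left out; the mean silhouette was 0.314 with 2 clusters, and the CFU-E plate did not exceed 0.115, under the 0.2 taken as separated. No doublet caller was run, since wells received single sorted cells. Coordinates, exonic length and overlap come from GENCODE M21, in which 49326 of 49466 genes had a position, and promoter windows from RefSeq (GRCm38.p6). Scaling alternatives used edgeR 4.0.16 (TMM) and DESeq2 1.42.0 (median of ratios) factors only, with no count model, in R 4.3.3; the rest used Python 3.11.15 with scipy 1.17.1 and scikit-learn 1.9.0. Scripts were tested on simulated data with known folds. Cells are not replicates, so intervals (95%) cover counting error only.

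The other marker lists were summed in the same way. Summed levels in granulocyte-monocyte-like, erythroid BFU-E and CFU-E cells were 2138, 378 and 11.1 CPM for stem and multipotent progenitor markers (Cd34, Meis1 and Flt3 leading on the BFU-E plate), 34.2, 284 and 25.7 CPM for 5 megakaryocyte markers (led by Itga2b, with Pf4 at 0) and 171, 199 and 161 CPM for hepatocyte markers (Afp, Alb and Apoa1). They were 118, 13.5 and 86.0 CPM for lymphoid markers (1.40 CPM in CFU-E without the 3 lymphoid-marker cells), 120, 6.48 and 1.35 CPM for mast cell and basophil markers, 119, 40.9 and 2.13 CPM for endothelial and stromal markers, and 8.42, 2.22 and 0.449 CPM for macrophage markers.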

Additional observations from a re-analysis of the deposited data

How the results depend on the processing

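Against the whole BFU-E plate the number of carriers at least 2-fold higher in CFU-E stayed between 6 and 8 of 9 under every alternative run, and none was at least 2-fold lower. It was 6 without thinning, where Bsg was at 1.88, and 6 in cells with odd label numbers, where Ermap was at 1.97. Without the 3 lymphoid-marker cells of the BFU-E plate it was 6 as well, Bsg lying just under 2-fold. The median log2 difference of 1.44 became 1.27 when cells were thinned to 50000 counts, 1.99 with TMM factors and 2.01 with median-of-ratios factors. Against erythroid BFU-E cells the 4 higher carriers became 7 with TMM and 7 with median-of-ratios factors, which by their construction add 0.54 and 0.55 to each log2 difference, and were 4 or 5 under the other alternatives. Among the partners outside the red cell 1 was higher with TMM factors and 1 against erythroid BFU-E cells only, in place of 0, and 2 membrane partners were lower against erythroid BFU-E cells only, in place of 0. Of 117 ratios recomputed against erythroid BFU-E cells 82 stayed within their counting interval and 35 left it; against the plate 67 of 99 stayed and 32 left it. No ratio of at least 2-fold crossed 1, but against erythroid BFU-E cells Aqp1 ran from 0.854 to 1.44 and Cd44 from 0.665 to 1.02. Kel against erythroid BFU-E cells was lowest, at 2.17, in cells with even label numbers. The erythroid cluster held 51 to 53 cells under 3 other clustering settings, of which 51 to 53 were among the 54. Leaving out the highest cell of each carrier, the lymphoid-marker CFU-E cells in the comparison with the whole plate, and the lymphoid-marker cells of the BFU-E plate were choices made after seeing the data. With 1 plate per cell type, depth limits only low levels, and differences between animals or plates have no estimate. No paired analysis was possible because the shared cell numbers of the plates are only names and no test was made.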
